A study of Schizosaccharomyces pombe with 6 samples.

Results

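The locus of ddr48 and jmj1 is a stretch of about 40 kb on chromosome I of the fission yeast Schizosaccharomyces pombe. It was taken as the array probes on that chromosome whose middle lay in the stretch, 138 of the 42641 nuclear probes of the array, from 2505134 to 2544763. Its 4 member genes were ddr48 (SPAC23H3.15C, 2523372 to 2524674, minus strand), jmj1 (SPAC25H1.02, 2525804 to 2527510, plus strand), atg101 (SPAC25H1.03, 2527958 to 2528644, plus strand) and mug105 (SPAC25H1.04, 2529075 to 2529901, plus strand). ddr48 and jmj1 point away from each other and are parted by a gap of 1129 bp (2524675 to 2525803). The locus was chosen by its high IP over input in rad3Δ against WT on these same arrays. All differences of the ratio between strains here are therefore a description, and limma calls on them are not read as tests.

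The study measured where Ssb1, a subunit of replication protein A (RPA), lay along the genome, by chromatin immunoprecipitation (ChIP) on 2-colour tiling arrays. The groups were cdc25-22, called WT as in the labels, and cdc25-22 rad3Δ, with 3 arrays each. Cells of both groups carried cdc25-22, were grown at 25 °C, were held for 4 h at 36.5 °C, were released at 25 °C and then received 6 mM hydroxyurea. Each array held the immunoprecipitated DNA (IP) of a sample in one colour and the input of that sample in the other. The cdc25-22 allele is temperature-sensitive and stops cells before mitosis, so that both groups entered the next cycle from the same arrest. No label gives how long cells stayed in hydroxyurea. For rad3Δ replicate 3 the IP label reads cdc25-22 and the input label cdc25-23.

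RPA coats single-stranded DNA wherever the strands of the helix part, as at replication forks. Hydroxyurea inhibits ribonucleotide reductase and so slows forks, and Rad3, the ATR-family kinase of fission yeast, is drawn to RPA-coated DNA at slowed forks, where it starts the checkpoint that steadies forks and holds back late origins. Fission yeast origins are known to lie in AT-rich stretches between genes, where the origin recognition complex binds runs of A and T. Among the member genes, ddr48 carries the name of a DNA damage-responsive gene of budding yeast, jmj1 encodes a protein with a JmjC domain, a fold known from histone demethylases, atg101 encodes a subunit of the Atg1 kinase complex that starts autophagy, and mug105, also named zup1, encodes a deubiquitinating enzyme.

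Sequence was read from the RefSeq assembly ASM294v3, by that assembly's own annotation. The files place their probes on a build called Spombe:NCBI:Feb2002. In 9 of 10 stretches of 100 probes around the locus, probe length followed the G+C content of ASM294v3 best at an offset of at most 10 bp, so gene names and sequence could be set beside the probes. The gap between ddr48 and jmj1 held 69.2% A+T. The smaller gap between jmj1 and atg101, 447 bp wide, held 71.8% A+T, and its most AT-rich 300 bases, at chrI:2527531-2527830 on the plus strand, held 75.7%. They are shown 5′ to 3′ since the second summit of the rad3Δ ratio lay over this gap, and runs of 5 or more A (AAAAA) or of 5 or more T (TTTTT) are in capitals.
jmj1-atg101 gap: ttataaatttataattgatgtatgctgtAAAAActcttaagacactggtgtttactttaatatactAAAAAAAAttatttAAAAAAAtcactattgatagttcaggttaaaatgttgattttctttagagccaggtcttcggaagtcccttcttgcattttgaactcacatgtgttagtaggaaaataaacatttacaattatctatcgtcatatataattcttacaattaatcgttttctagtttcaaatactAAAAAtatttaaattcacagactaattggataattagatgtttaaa

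The sequence holds 4 such runs, the longest of 8 bases. Of 35634 neighbouring 300-base stretches of the genome, 86.1% held at least 1 such run (runs of T being runs of A on the other strand), with a median of 2. At least 4 were held by 23.2%. The median stretch held 64% A+T. A share of 1.21% was at least as AT-rich as the sequence shown, which had been picked as the most AT-rich of its gap. Of 1022 gaps between genes that point away from each other, 34.7% were at least as wide as the ddr48 to jmj1 gap and 36.1% at least as AT-rich, with medians of 840.5 bp and 68.2%. Within the window, A+T in windows of 500 bp reached its highest value, 75.4%, at 111 bp to the right of the middle of the gap, against a median of 63.8%. It was nearly as high elsewhere, with 74.6% at 12911 bp, 74.4% at -4489 bp (to the left) and 74.2% at 2311 bp.

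The strains were first checked at the deleted gene. Over the 33 probes of rad3 (chromosome II, 904184 to 913629) the median log2 input was -0.33 ± 0.11 on WT arrays and -5.88 ± 1.0 on rad3Δ arrays, relative to the median probe (SD, n = 3 arrays each). All arrays matched their strain labels. Median processed intensity was 969 to 1106 for input and 1007 to 1145 for IP, and the ratio correlated at 0.531 to 0.620 between WT arrays and 0.580 to 0.671 between rad3Δ arrays. None of the 828 spots of the window was flagged, and 104 of its 138 probes were well above background in both channels on all 6 arrays. Neighbouring probes of the window started 274 bp apart at the median. On each slide WT lay at position 2 and rad3Δ at position 4, and the effects of strain and of slide position cannot be told apart. There was no IP without Ssb1 among the arrays, and no label states that the replicates came from different cultures, so the spread given is that between these samples and may be technical. All levels below are log2 IP over input or log2 intensity relative to the median probe of the array, so a change shared by the whole genome is not seen. More cells with RPA at a site and more RPA per cell cannot be told apart.

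The gap between ddr48 and jmj1 stood at the top of the window in rad3Δ and below the array median in WT. The mean ratio of its 4 probes was -0.10, -0.46 and -0.38 on WT arrays 1 to 3. On rad3Δ arrays 1 to 3 it was 1.54, 1.46 and 2.32. The lowest rad3Δ array thus lay far above the highest WT array, and rad3Δ replicate 3 stood above the other two. In means this was -0.31 ± 0.19 against 1.77 ± 0.48 (SD, n = 3), a difference of 2.08 or 4.24-fold. Arrays of the same number shared a slide, and the difference was 1.64, 1.92 and 2.70 within the 3 slides.

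The probe at 2525238 to 2525297, 28.5 bp from the middle of the gap, carried the highest mean of the window in rad3Δ. Its ratio was 1.84, 1.61 and 2.64 in rad3Δ and -0.59, -0.17 and 0.40 in WT. The 2 probes to its right, at 2525425 and 2525605, averaged 1.85 ± 0.29 and 1.89 ± 0.62 in rad3Δ, and that to its left, at 2524709, 1.31 ± 0.47. All 4 probes were below 0 in the WT mean, at -0.48, -0.12, -0.37 and -0.29 from left to right. WT arrays differed among themselves at single probes, as at 2525605, where they read 0.41, -0.33 and -0.93.

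**Figure D1:**
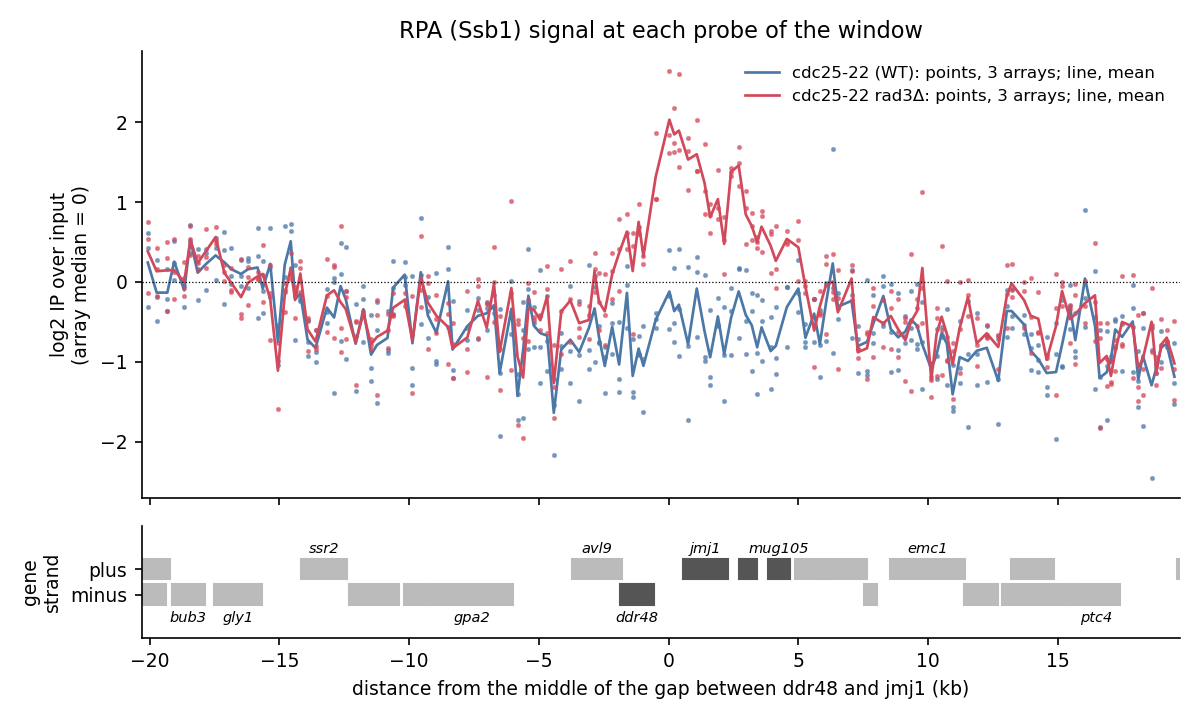
Log2 IP over input (vertical axis, array median at 0) at each of the 138 probes against distance in kb from the middle of the gap between ddr48 and jmj1, with 3 arrays per strain as points and strain means as lines. Below, protein-coding genes by strand, the 4 member genes dark. The rad3Δ mean rises above 0 around the gap, reaches 2.03 there and shows a lower second summit to the right, while the WT mean stays at or below 0.53.

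The signal of rad3Δ had a steep left side and a long right side. Smoothed over 3 neighbouring probes, the rad3Δ mean peaked at 1.92 and stayed at or above 50% of that height from 2524709 to 2526868, over 2160 bp. From the summit this reached 715 bp to the left, as far as the left end of the gap, and 1386 bp to the right, into jmj1. The 3 arrays alone gave 3260, 1942 and 2160 bp, with the same summit probe and the same left end on each of them. Probes around that left end start at 2524237, 2524709 and 2525238, wider apart than the median of 274 bp. The left end and the steepness there are known only to within this spacing. The mean stayed above 0 from 2523032 to 2530268, over 7237 bp. Right of the gap the mean was as low as 0.48 at 2527350 to 2527409, in the 3′ part of jmj1, and was 1.38 and 1.46 at the next 2 probes, 2527614 to 2527968, in and at the end of the gap between jmj1 and atg101. That second summit was present on all 3 rad3Δ arrays, whose dip read 0.81, 0.10 and 0.52 and whose following probe read 1.33, 1.38 and 1.43. WT had the same pattern at a lower level at these probes, from -0.90 in the dip to -0.45 and -0.12. The difference between strains was 1.38 in the dip and 1.83 and 1.58 after it. The dip was 1 probe with a high input, 1.94 in rad3Δ against -0.74 and -0.13 at the next 2 probes. In the IP of rad3Δ there was no dip, with 2.38 at this probe and 0.60 and 1.29 at the next 2.

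The difference between strains spread wider than the rad3Δ summit. Smoothed, it peaked at 2.24 and kept 50% of this from 2523602 to 2529199, over 5598 bp, with 5208, 3912 and 5080 bp on the 3 slides. It reached 2003 bp to the left of its summit and 3536 bp to the right. In steps of 1 kb from the middle of the gap, the difference was 2.22 in the first kb to the right, then 1.69, 1.51, 1.28, 0.81 and 0.30, and -0.02 in the seventh. To the left it was 1.58, 1.27, 0.56, 0.32, 0.38 and 0.05. No WT array reached a rad3Δ array in the 3 steps to the left of the middle and the 5 to the right, and in each further step shown the arrays overlapped.

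Probe by probe, 23 of the 138 probes (16.7%) were higher in rad3Δ by limma at an adjusted p under 0.05, where 3.52% of all probes were. None was lower by limma, where 0.0844% of all probes were. At an unadjusted p under 0.05, 38 (27.5%) were higher and 0 lower, where 10.75% and 4.055% of all probes were. The window was selected on this contrast, so nothing is read from these shares. The 23 probes lay between 2523301 and 2529824 with no called probe elsewhere in the window, and 22 of them followed each other without a break over 5998 bp from 2523827. They took in 3 of 4 probes of ddr48, all 4 of the gap, all 6 of jmj1, both of atg101, all 3 of mug105, all 4 in the other 2 gaps and 1 of avl9. Their differences ran from 0.85 to 2.31, and those of the 115 other probes from -0.57 to 0.96. All rad3Δ arrays stood above all WT arrays at 29 probes (21.0%), against 10.5% of all probes, 26 of them in a row over 7077 bp from 2522748. The probe calls were lost without replicate 3, the only arrays with the IP in the red dye. When it was left out in either strain or in both, limma called 0 of the 138 probes and 0 of all probes. The lowest limma adjusted p of the window was then 0.058, and 30 of the 138 were higher at an unadjusted p under 0.05. Where 1 red array was left, the dye term took up that array, so these settings all made the same comparison of strains. With normexp background correction limma also called 0 of them, with 33 higher unadjusted.

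Against the array median, 19 probes (13.8%) were enriched in rad3Δ by limma and 2 (1.45%) in WT, where 17.2% and 12.8% of all probes were. Those of rad3Δ held 17 within the called stretch, 9 of them in a row over 2459 bp from 2524709, and 2 in bub3 and gly1 far to the left. Without rad3Δ replicate 3 the count fell to 3. The 2 probes of WT were the one in bub3, at 0.53 ± 0.18 in WT and 0.53 ± 0.19 in rad3Δ, and the one just past the tRNA gene SPATRNACYS.02, at 0.51 ± 0.30 and 0.17 ± 0.17. Neither lay near ddr48 or jmj1. By limma at an adjusted p under 0.05, 87 probes (63.0%) were called below the array median in WT and 54 (39.1%) in rad3Δ, where 16% and 17.6% of all probes were called. The median of the 138 probes was -0.57 in WT against -0.26 in rad3Δ. The ratios of both strains make up the contrast on which the window was selected, so nothing is read from these counts.

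The 2 channels were then taken apart. The IP was higher in rad3Δ over the gap, and the input was higher by less over the same probes. The IP of the gap, relative to the array median, was -0.46, -0.67 and -0.66 on WT arrays and 1.70, 1.82 and 2.19 on rad3Δ arrays. This was a difference of 2.50 or 5.66-fold, larger than that of the ratio, and 2.15, 2.50 and 2.85 within slides. In processed intensity the geometric mean of the 4 probes was 735, 705 and 657 in WT and 3350, 4056 and 4785 in rad3Δ. Of the 138 probes, 15 (10.9%) had a higher IP in rad3Δ by limma, where 1.66% of all probes had. At an unadjusted p under 0.05, 29 (21.0%) had, where 8.62% of all probes had. The IP is the numerator of the ratio on which the window was selected, so nothing is read from these shares. With the replicate number as a block the adjusted count was 26. Without replicate 3 of either strain the adjusted count was 0, with 20 higher at an unadjusted p under 0.05. In jmj1 the IP difference was 2.02, in ddr48 1.33, in atg101 1.39 and in mug105 1.01.

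The input of the gap was -0.31, -0.20 and -0.27 on WT arrays and 0.23, 0.39 and -0.10 on rad3Δ arrays. The groups did not overlap, and rad3Δ replicate 3 lay nearest to WT. The difference was 0.43 or 1.35-fold, with 0.54, 0.59 and 0.17 within slides. Intensities were 780, 942 and 805 in WT and 1156, 1449 and 942 in rad3Δ. Among 42313 runs of 4 neighbouring probes across the genome, 16 showed a larger input difference, 1 of them in the window, and the 99th percentile was 0.27. For the ratio 4 runs were larger, 2 of them in the window, and for the IP 1 run, in the window. The window was selected on the ratio, which holds both channels, so nothing is read from these ranks. The input difference was 0.29 in jmj1 (0.29, 0.38 and 0.20 within slides), 0.16 in atg101, 0.09 in ddr48 and -0.06 in mug105. Smoothed over 3 neighbouring probes, the input difference peaked at 0.49. It kept 50% of its height over the 2160 bp from 2524709 to 2526868 in the mean and on slides 1 and 2. These were the same probes as those of the mean rad3Δ ratio. On slide 3 it peaked lower, at 0.25, at 2526810 in jmj1, and kept 50% of that from 2525238 to 2527409, over 2172 bp. By limma no probe of the window or of the genome had a higher input (0%), with 4 of the 138 and 108 of all probes higher at an unadjusted p under 0.05. The same fit called 7 probes of the genome lower. Yet at 24 of the 33 probes of the deleted rad3, every rad3Δ array stood below 50% of every WT array. The lack of calls therefore does not show that the inputs were alike. Input was higher in rad3Δ on all 3 slides at 23 probes of the window (16.7%), against 15.4% of all probes. The share was near that of all probes, so nothing is read from it. Of the 23 probes, 13 lay between the start of the gap and the end of mug105. The gap held 4 of 4, jmj1 5 of 6 and atg101 2 of 2, while ddr48 held 0 of 4 and mug105 0 of 3. No share over like stretches of the genome was taken, so these places are a description only. Outside the stretch the input of the strains differed little, by -0.05 over the 49 probes at the left end of the window and -0.06 over the 36 probes at its right end. Across the 138 probes input and ratio correlated at r = -0.37 in WT and -0.14 in rad3Δ. Across the 26 probes of the raised stretch the difference between strains correlated with the input of WT at r = -0.02. These probes share their arrays and neighbouring fragments, and the part of the input in the ratio was not tested.

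**Figure D2:**
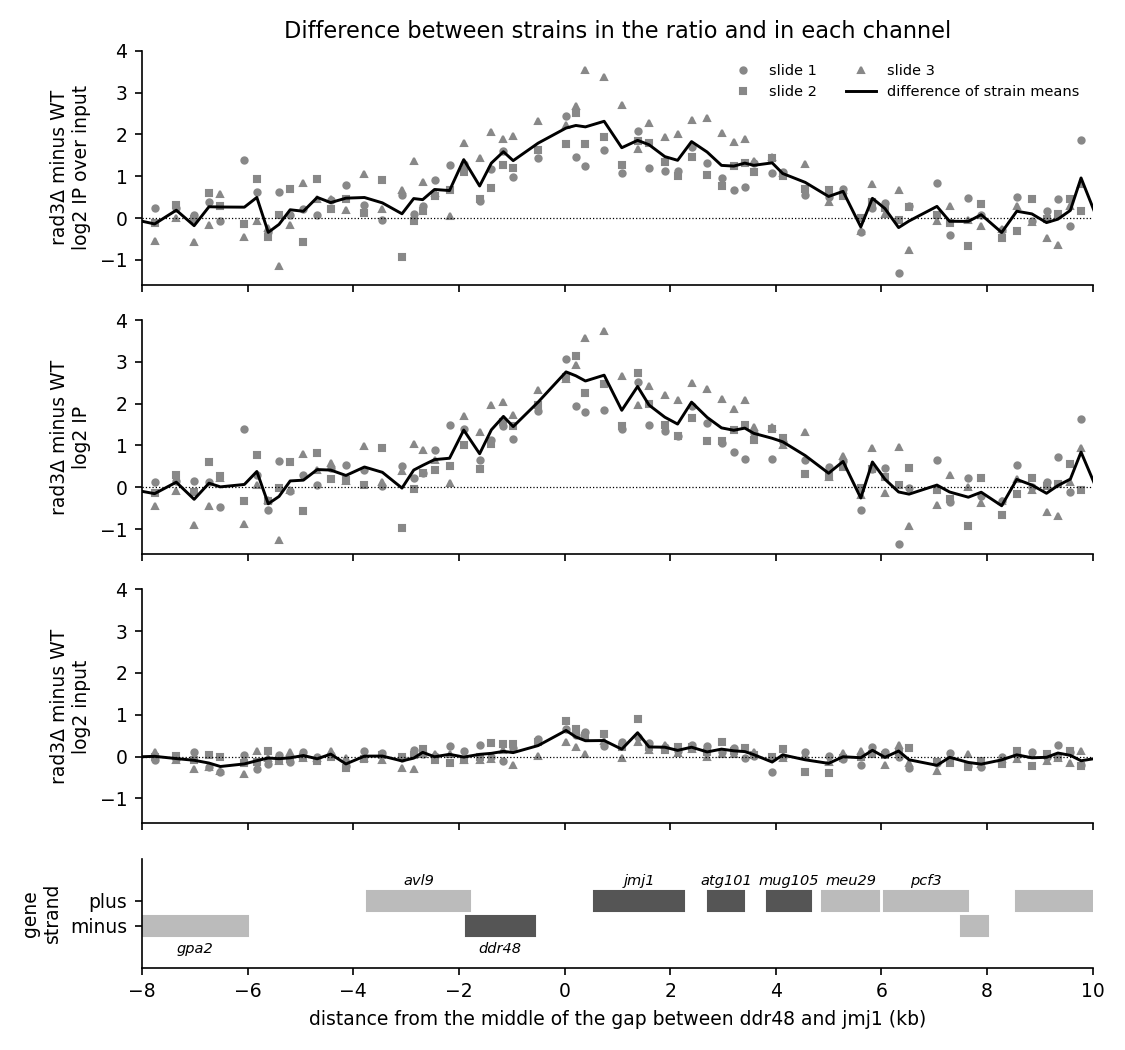
Difference rad3Δ minus WT in log2 IP over input (top), log2 IP (middle) and log2 input (below the IP) against distance in kb from the middle of the gap, on equal vertical axes. Symbols are the 3 slides and lines the difference of strain means, with genes by strand below. At the probe from 2525238 to 2525297 the IP line stands at 2.76 and the input line at 0.62, and both lie near 0 towards either end.

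In jmj1, the gene with the JmjC domain, the mean of 6 probes was -0.22, -0.72 and -0.94 on WT arrays and 1.15, 0.81 and 1.38 on rad3Δ arrays. The arrays did not overlap, and the difference was 1.74 or 3.35-fold. Within the gene the difference ran from 2.31 at the first probe from the gap to 1.38 at the last. In ddr48, on the other side of the gap, 4 probes gave -0.49, -0.77 and -1.14 against 0.54, 0.15 and 0.69. Here too every rad3Δ array was higher, by 1.26 or 2.39-fold in the means. In rad3Δ jmj1 stood higher, at 1.12 ± 0.29, than ddr48, at 0.46 ± 0.28. This order held on each of the 3 rad3Δ arrays and on each of the 3 WT arrays.

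In atg101, the Atg1 complex gene, the 2 probes gave -0.32, -0.11 and -1.01 against 0.50, 0.89 and 0.92, a difference of 1.25 or 2.38-fold. mug105, the deubiquitinase gene, gave -0.48, -0.40 and -1.10 against 0.44, 0.65 and 0.17, a difference of 1.08 or 2.11-fold, the smallest of the member genes. The spread between arrays was as large as 0.47 in WT at atg101, and WT replicate 3 was the lowest array at all 4 genes. The gap between jmj1 and atg101 reached 1.42 ± 0.14 in rad3Δ against -0.28 ± 0.46 in WT, above both jmj1 and atg101 in the rad3Δ mean. The gap between atg101 and mug105 stood at 0.59 ± 0.14 against -0.69 ± 0.45, between atg101 and mug105 in the rad3Δ mean. In order of the rad3Δ level the features ran from the gap of ddr48 and jmj1 over that of jmj1 and atg101, jmj1, atg101, the gap of atg101 and mug105 and ddr48 to mug105. Neighbours in this order differed by no more than the larger of their SDs, except jmj1, which lay just beyond it from both of its neighbours.

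**Figure D3:**
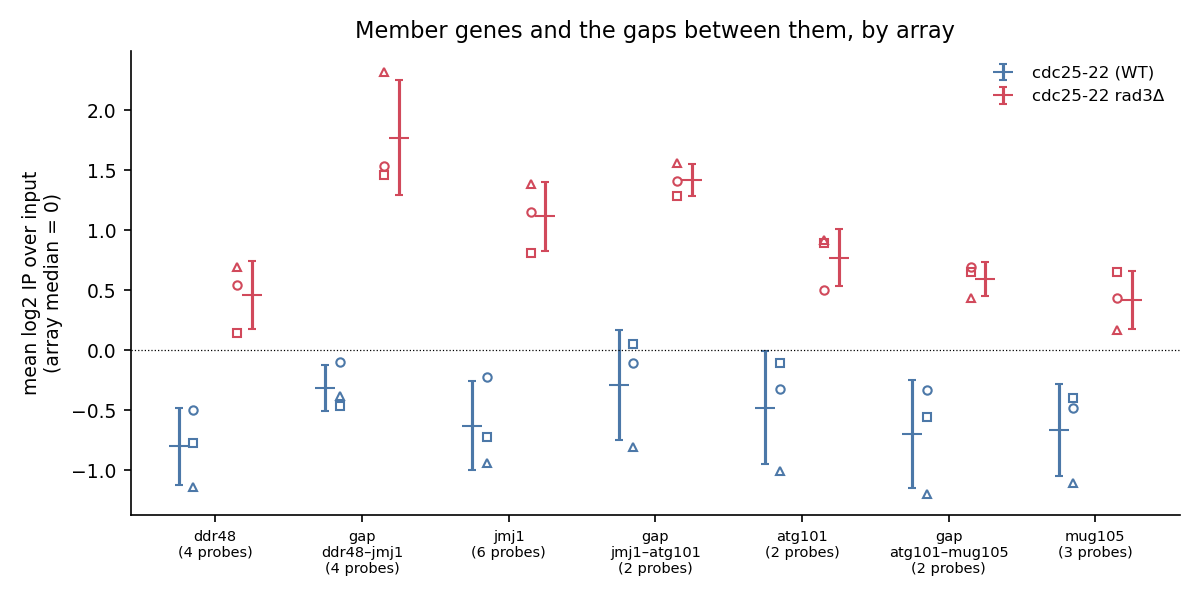
Mean log2 IP over input (vertical axis, array median at 0) of each member gene and of the gaps between them, in chromosome order. Open symbols are single arrays (circle, square and triangle for replicates 1, 2 and 3), bars the mean and SD of 3 arrays. The strains do not overlap at any of the 7 features, and the gap of ddr48 and jmj1 is highest in rad3Δ at 1.77.

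The RefSeq annotation also lists noncoding RNAs at the locus. SPNCRNA.832 (2523434 to 2525232, plus strand) runs antisense through ddr48 into the gap, and SPNCRNA.3137 (2525227 to 2527440, minus strand) runs antisense through jmj1 into the gap from the other side. The probe with the highest rad3Δ mean lay at 2525238, next to where these 2 RNAs meet. SPNCRNA.833 (2527828 to 2529986, minus strand) runs antisense through mug105 and atg101. The arrays measured DNA on both strands together and say nothing of these RNAs.

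Of the 22 protein-coding genes that overlap the window, 7 were higher in rad3Δ by limma and 0 lower, where 9.87% of 4145 genes were higher and 1.28% lower. At an unadjusted p under 0.05, 9 were higher and 0 lower, where 17.2% of all genes were higher and 10.3% lower. The window was selected on this contrast, so nothing is read from these counts. The 7 lay in 2 groups. avl9 (difference 0.59), ddr48, jmj1, atg101, mug105 and meu29 (0.35, with overlapping arrays) follow each other along the chromosome, and SPAC4A8.02C (0.34) lies apart. The calls of the 4 member genes were lost only with normexp correction and, for atg101, with dim probes left out, where fewer than 2 probes remained. Those of avl9, meu29 and SPAC4A8.02C were also lost without replicate 3 of either strain, among other settings. The median gene of the window differed by 0.17 and the median of all genes by -0.04.

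The other genes of the window were not called. On the left, gpa2, which encodes a G protein alpha subunit of glucose sensing, stood at -0.51 ± 0.29 in WT and -0.48 ± 0.38 in rad3Δ. SPAC23H3.12C and SPAC23H3.11C differed by -0.05 and 0.00, and ssr2, a chromatin remodelling subunit gene, by 0.06. Further left, apl6, mrp2, bub3 and gly1 differed by 0.24, 0.13, 0.03 and -0.11. On the right, pcf3, a chromatin assembly factor subunit gene, stood at -0.28 ± 0.35 and -0.25 ± 0.32. atp19 and ptc4 differed by 0.00 and 0.04, and isp6, a protease gene at the right end, by -0.04. emc1, sqt1 and mde5 differed by 0.20, 0.36 and 0.35 and were not called, although sqt1 and mde5 differed by as much as the called SPAC4A8.02C. mde5 lies wholly within SPAC4A8.02C on the other strand, so its 5 probes are among the 9 of that gene. The outermost probes of the window were unlike each other in both strains, at 0.24 in WT and 0.38 in rad3Δ on the left and -1.19 and -1.02 on the right, and the probes just beyond stood at 0.16 and 0.14 and at -0.77 and -0.51.

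**Figure D4:**
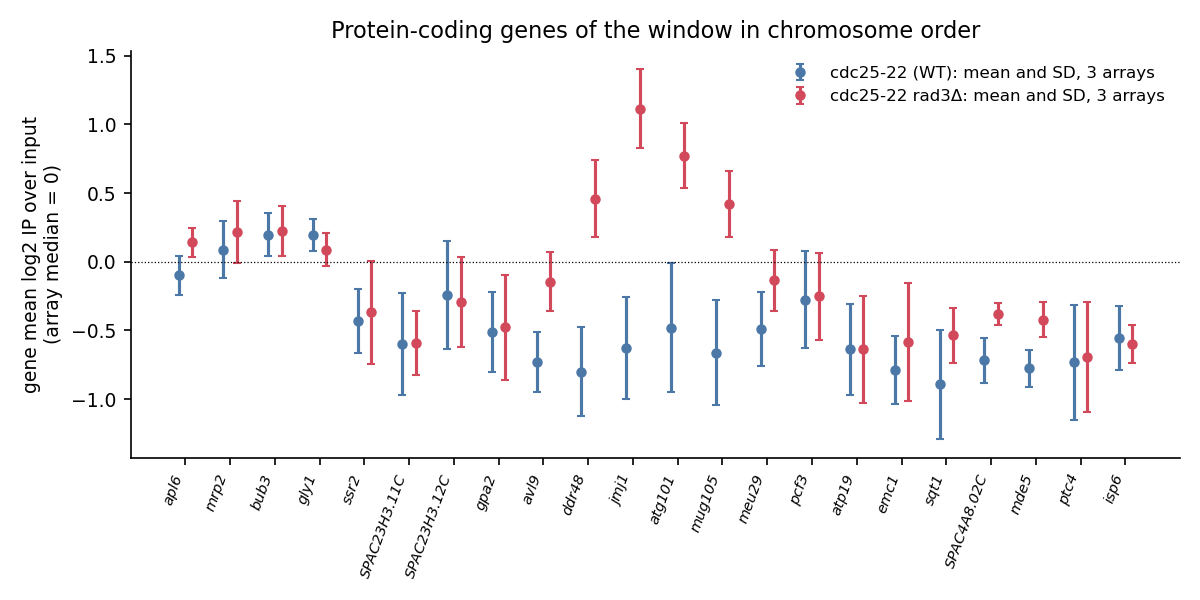
Mean log2 IP over input (vertical axis, array median at 0) of the 22 protein-coding genes of the window in chromosome order, as mean and SD of 3 arrays per strain. The rad3Δ means of ddr48, jmj1, atg101 and mug105 are the 4 highest and stand above 0, at 0.46, 1.12, 0.77 and 0.42, while those of WT stand between -0.80 and -0.48.

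Set beside 1647 gaps between neighbouring genes with at least 2 probes, the ddr48 to jmj1 gap was passed by 1 gap in its difference between strains and by 1 in its rad3Δ level. In WT 1397 gaps stood higher. The locus was selected on the ratio in rad3Δ against WT, so nothing is read from these ranks. The median gap differed by 0.01, the median of 735 gaps between genes that point away from each other by 0.06, and that of the 307 among them at least as AT-rich by 0.21, with 95% of those below 1.28. Across probes of the matching part of the genome (n = 36404) the A+T content of 500 bp around a probe correlated with the ratio at 0.15 in WT and 0.26 in rad3Δ and with the difference at 0.17. Within the window (n = 138) these were 0.26, 0.14 and -0.03. Neighbouring probes share fragments and base composition, so these are descriptions.

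Of the 5 genes outside the window whose ratio ran most like that of the gap between ddr48 and jmj1 over the 6 arrays, 4 were arh1, a ferredoxin reductase gene (r = 0.998), gmf1 (0.997), mcm7, a subunit of the replicative helicase (0.997), and aat1, an amino acid transporter gene (0.996). Of 4123 genes compared, 138 reached 0.95. The 6 arrays fall into 2 strains, so such an r rests mostly on the difference between the strains, and it is a description. The differences of these 4 genes were smaller than that of the gap, at 0.76, 1.53, 0.50 and 0.48.

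Among 7 JmjC domain genes, jmj1 included, jmj1 alone was higher in rad3Δ by limma and none was lower, where 9.87% of all genes were higher and 1.28% lower. The median difference was -0.16, against -0.04 over all genes. epe1, which encodes the factor against spreading heterochromatin, stood at 0.31 ± 0.09 in WT and 0.06 ± 0.04 in rad3Δ, and lid2, an H3K4 demethylase gene, at -0.41 ± 0.18 and -0.56 ± 0.28. jmj2, jmj3, jmj4 and msc1 differed by -0.10, -0.37, -0.21 and 0.12. Of the genes of the Atg1 complex, 4 of 5 could be tested, and atg101 alone was higher, with none lower and a median of 0.10, beside the same shares over all genes. Both called genes lie in the window selected on this contrast, so nothing is read from these counts. atg1, the kinase itself, stood at -0.42 ± 0.05 in WT and -0.71 ± 0.14 in rad3Δ, and atg11 and atg17 differed by 0.22 and -0.02.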

How the data were processed

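The 6 two-colour Agilent tiling arrays, 3 of WT and 3 of rad3Δ, carried the Ssb1 IP in green and input in red on replicates 1 and 2, and the reverse on replicate 3. The deposited scanner files give spot intensity from Agilent Feature Extraction, with its background subtracted, a spatial trend removed and a linear dye factor applied per the file headers. Its version is 10.7.3.1 in the submitters' processing notes, while the headers give 10.7.1.1 for replicate 1 of both strains and 10.7.3.1 for the others. The deposited LogRatio is a log10 value of red over green. The authors' series matrix, an alternative here, holds a linear ratio that equalled the scanner ratio within 1% at all probes. Spots with an outlier flag in the deposited files, 2 to 401 per array, were left out. Log2 IP over input, and each channel, was centred on the array median. limma 3.58.1 in R 4.3.3 fitted strain means with a dye term over all probes, two-sided, with Benjamini-Hochberg adjustment at 0.05, and was tested on simulated data. The labels' protocols speak of RNA, which was not resolved.

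Same-numbered arrays shared a slide and a scan, and their deviations from the strain means correlated at 0.399, 0.361 and 0.483, so numbers pair the arrays. Whether this came from the slide, the dye or the samples was not tested. The main fit did not hold this pairing, which entered only as the replicate block among the alternatives. Genes, from RefSeq, needed 2 probes with their middle inside. Named were the member genes, the genes of the window, 4 of the 5 genes most like the gap (the other is not reported here) and 2 families. Members and lists were chosen with earlier results of these data known. Alternatives were mode centring, no dye term, a replicate block, normexp with an offset of 50, the series matrix, no dim probes and arrays left out.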

Additional observations from a re-analysis of the deposited data

How the results depend on the processing

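The difference at the gap kept its direction under every alternative run, at 1.78 to 2.24 against 2.08. Those of ddr48, jmj1, atg101 and mug105 kept theirs, with mug105 at 0.86 without WT replicate 3 against 1.08. With normexp jmj1 fell to 1.248 against 1.743, and lay near ddr48 at 1.206 and atg101 at 1.195. The counts of calls by limma moved more, and the cause was not tested. With normexp, 0 probes were higher (33 at an unadjusted p under 0.05), 8 had a higher IP, 0 were enriched in WT (1 unadjusted) and 0 genes were higher (11 unadjusted). With replicate 3 of both strains left out, 0 probes were higher (30 unadjusted), 0 had a higher IP (20 unadjusted), 0 were enriched in WT (6 unadjusted) and 4 genes were higher. With mode centring 1 probe was enriched in WT. Leaving out each array in turn gave 0 to 23 higher probes, 0 to 19 with a higher IP, 3 to 20 enriched in rad3Δ, 0 to 2 enriched in WT (2 or 3 unadjusted where 0) and 4 to 7 genes. The counts of 0 came without WT replicate 3 or rad3Δ replicate 3, which leave 1 array with the IP in red, and for WT enrichment also without WT replicate 2. In limma's comparison of strains the dye term takes up that red array. Leaving out either replicate 3 is there the same comparison as leaving out both. With the replicate block, paired by slide, 26 probes had a higher IP, 25 probes were higher (all 23 among them), 26 were enriched in rad3Δ and 9 genes were higher. The signal stayed above 25% of its height over 4614 bp. An input call was made under none of the alternatives, with 2 to 10 probes of the window higher unadjusted. The input fit as reported called 7 probes of the genome lower although rad3 was deleted. The lack of calls thus does not show that the inputs were alike. The width has no fit to which a dye term or a block could be put. With 3 arrays per strain, an exact permutation test cannot give less than 0.1.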
